A study of Homo sapiens with 6 samples.

Results

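In 388 protein-coding genes, reads from sequential chromatin immunoprecipitation (reChIP) for H3K4me3 and H2AK119ub gathered at a transcript start inside the gene and not at the annotated gene start. They were found among 12442 protein-coding genes of chromosomes 1 to 22 and X that have a transcript start more than 3000 bp from the gene start, a share of 3.12%. The gene start is the outermost 5′ end of the gene in GENCODE v44. A gene was selected where the 1500 bp on either side of such an internal start overlapped a peak of 10 or more reads, called here a strong peak, in each of the 4 reChIP libraries, and where none of these libraries had a strong peak within 1500 bp of the gene start. The 388 genes had 386 distinct peaks in K4-K119 replicate 1, because 2 pairs of neighbouring genes shared a peak. The genes were chosen by the read counts of the 4 libraries at both starts, which are therefore given as a description with no test, in the order K4-K119 replicate 1, K4-K119 replicate 2, K119-K4 replicate 1 and K119-K4 replicate 2.

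The libraries came from NCI-H661, a human large cell carcinoma line of the lung, in its parental genotype and without treatment. Sonicated chromatin of crosslinked cells was bound by a first antibody, released and bound again by a second. The 3 conditions had 2 biological replicates each: H3K4me3 then H2AK119ub (K4-K119), H2AK119ub then H3K4me3 (K119-K4), and IgG in both steps (IgG-IgG). All 6 libraries share the same line, so no other genotype or tissue stands against them, and fewer cells carrying both marks cannot be told apart from fewer marked nucleosomes per cell. Libraries with one of these antibodies and IgG in the other step were not analysed here, so the carry-over of fragments with 1 mark was not tested. The reChIP libraries differed in yield, with 19235 and 8656 strong peaks in the K4-K119 replicates and 9878 and 6437 in the K119-K4 replicates, against 1 and 2 in the IgG-IgG replicates. The files used here list reads in called peaks only and state no sequencing depth, so intervals on read counts are not given. The deposited log2 fold scales input in each library, and this scale was not used to compare depths.

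Many human genes are transcribed from several promoters, which give messages with different first exons and sometimes proteins with different ends. H3K4me3 marks active and poised starts and is known to favour CpG islands. H2AK119ub is laid down by the Polycomb repressive complex PRC1, which is linked to repression of developmental genes and is also drawn to CpG islands. A reChIP signal at one start of a gene and not at another therefore bears on which promoter carries the pair of marks.

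The sequences below show the 2 starts of 5 such genes, given as examples. They were read from hg38, cover the 100 bases just upstream of each start, 5′ to 3′ along the gene, and lie outside annotated exons. Capitals mark each CpG. RUNX1, RUNX3 and DMD are textbook cases of alternative promoters, and NOTCH2 and CDKN1B are genes whose canonical transcript begins at the internal start.
RUNX1 internal start, chr21:34889791-34889890 (- strand): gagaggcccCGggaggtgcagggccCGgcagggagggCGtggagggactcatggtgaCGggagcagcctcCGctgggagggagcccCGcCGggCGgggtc
RUNX1 gene start, chr21:36004668-36004767 (- strand): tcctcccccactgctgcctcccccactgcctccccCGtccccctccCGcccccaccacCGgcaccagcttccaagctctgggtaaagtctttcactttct
RUNX3 internal start, chr1:24930277-24930376 (- strand): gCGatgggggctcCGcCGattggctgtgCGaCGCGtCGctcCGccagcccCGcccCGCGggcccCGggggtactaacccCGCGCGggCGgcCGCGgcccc
RUNX3 gene start, chr1:24965122-24965221 (- strand): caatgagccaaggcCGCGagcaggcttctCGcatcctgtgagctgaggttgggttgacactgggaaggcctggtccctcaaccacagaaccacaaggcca
DMD internal start, chrX:31266972-31267071 (- strand): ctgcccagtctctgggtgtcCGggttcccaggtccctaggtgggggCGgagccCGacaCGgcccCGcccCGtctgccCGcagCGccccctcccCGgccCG
DMD gene start, chrX:33339610-33339709 (- strand): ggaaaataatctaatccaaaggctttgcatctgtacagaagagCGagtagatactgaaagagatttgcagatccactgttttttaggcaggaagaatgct
NOTCH2 internal start, chr1:120069663-120069762 (- strand): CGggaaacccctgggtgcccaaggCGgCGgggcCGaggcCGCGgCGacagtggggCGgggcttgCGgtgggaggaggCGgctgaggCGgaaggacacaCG
NOTCH2 gene start, chr1:120100780-120100879 (- strand): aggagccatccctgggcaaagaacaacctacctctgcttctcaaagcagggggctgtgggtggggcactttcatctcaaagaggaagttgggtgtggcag
CDKN1B internal start, chr12:12717268-12717367 (+ strand): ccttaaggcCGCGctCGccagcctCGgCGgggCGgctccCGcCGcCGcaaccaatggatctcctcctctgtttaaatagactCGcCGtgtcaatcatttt
CDKN1B gene start, chr12:12685398-12685497 (+ strand): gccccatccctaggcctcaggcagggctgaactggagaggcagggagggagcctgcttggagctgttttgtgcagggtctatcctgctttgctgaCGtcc
In all 5 genes the internal start had more CpG in these 100 bases than the gene start. RUNX3 had 18 CpG at the internal start and 3 at the gene start, and NOTCH2 had 12 and 0. The narrowest contrast of the 5 was at RUNX1, with 8 and 3. Other selected genes had the reverse in these 100 bases. The internal start and the gene start held 6 and 11 CpG at GATA2, 5 and 11 at HDAC7 and 2 and 6 at JAK3. They held 9 and 10 at RASSF1, 1 and 2 at SEPTIN3 and 0 and 2 at RAB26.

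The plot of peaks at 5 genes shows the rule at work and its borderline cases. At NOTCH2, which encodes a receptor of cell contact signalling, no peak of any size lay within 1500 bp of the gene start, and the 4 reChIP peaks covered the same 900 bp at the internal start. It was the only gene of the 388 whose peak had the same first and last base in every reChIP library. NOTCH2 has near-identical copies elsewhere on chromosome 1, so its reads may be split or shared with them. At GATA2, a transcription factor of blood and vessel progenitors, the peaks at the internal start were 4600 to 5700 bp wide and reached toward the gene start 4167 bp away, stopping outside the 1500 bp that the rule examined.

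The internal start was most often the main promoter of the gene in the annotation. In 324 of the 388 genes (83.5%), the Ensembl canonical transcript began within 1500 bp of an internal start that met the rule, against 39 (10.1%) where it began within 1500 bp of the gene start and 25 (6.44%) where it began elsewhere. In 321 of them it was the internal start described here, and in 3 it was another start that met the rule, NFIC, ZFHX3 and PIK3CD, which were looked up after the count was known. The MANE Select transcript, the agreed reference of RefSeq and Ensembl, began within 1500 bp of a start that met the rule in 320 genes. Over all 12442 genes the canonical transcript began more than 3000 bp from the gene start in 20.3%, and in the 388 genes in 88.4%. In the other 64 genes the canonical transcript began at no internal start that met the rule. Of 1513 genes without a strong peak at the gene start whose canonical transcript began over 3000 bp away, 343 (22.7%) were selected, compared with 39 of 1868 genes (2.09%) whose canonical transcript began within 1500 bp of the gene start.

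Most of these gene starts had a single transcript, and a minority had no coding one. In 242 genes (62.4%) a single transcript began within 1500 bp of the gene start, a share not counted over all genes. The median gene had 4 transcripts at the internal start and 11 in all, beside 9 in all over the 12442 genes. The first transcript was not protein coding in 114 genes (29.4%), mostly because its coding sequence is undefined (89 genes), compared with 21.3% over all 12442 genes. In 87 genes (22.4%) no protein-coding transcript began near the gene start, which was the case for 5.61% of all genes. The internal start lay in an intron of the first transcript in 336 genes, in 195 of them in intron 1, and inside an exon in 21.

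The internal start usually gave a new first exon, and often the same first coding base. Of 373 genes with a coding transcript at the internal start, 324 (86.9%) had a first exon there that overlapped no exon of the transcripts from the gene start. Coding transcripts began at both starts in 290 genes. Of these, 118 (40.7%) had the same first coding base from either start, 96 (33.1%) began translation further downstream when transcribed from the internal start, and 76 (26.2%) further upstream. In 60 genes (20.7%) the protein annotated for the internal start was the shorter. The proteins annotated for the gene start can themselves be short. At GLI3 it has 48 codons, against 1580 from the internal start with the same first coding base, and at THRA 31 against 410. These counts, and those of introns and exons above, were not made over all genes with an internal start. They are therefore not read as traits of the selected genes.

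Distances between the starts ranged from 3002 bp to 2072638 bp, with a median of 17510.5 bp and a middle range of 7420 to 38592 bp. The longest were in DMD, PDE4D and RUNX1. In each of these the canonical transcript began at neither start.

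At DMD, the dystrophin gene of muscle and brain, the internal start (position 31266971 of chromosome X) held 56, 43, 48 and 32 reads. This start, whose upstream sequence is printed above, is annotated with a protein of 635 codons. The gene is known for promoters that give short dystrophins as well as the full-length protein. At the gene start K4-K119 replicate 2 alone had peaks, of at most 3 reads, and the canonical start at 33211549 had none in any reChIP library.

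RUNX1, a transcription factor of blood stem cells, is known to be read from a distal promoter P1 and a proximal promoter P2. Its internal start lay at 34889790 of chromosome 21 and held 512, 213, 233 and 59 reads. The transcript from there encodes 453 codons. The canonical start at 35049302 had 2, 3, 2 and 0 reads in the same libraries, so the strong peaks were found at the proximal of these starts in every reChIP library.

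RUNX3, a related factor of lymphocyte and epithelial differentiation, had its canonical transcript at the internal start (24930276 of chromosome 1). The peaks there held 321, 187, 389 and 161 reads. At the gene start 34845 bp upstream, replicate 1 of either order had peaks of at most 6 reads and the other reChIP libraries had none. Neither RUNX gene had an IgG-IgG peak at the internal start.

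PDE4D, a phosphodiesterase that breaks down cyclic AMP, had 136, 90, 132 and 64 reads at its internal start (59039515 of chromosome 5). Its canonical start at 59893726 had 82 reads in K4-K119 replicate 1 and no peak in the other 3. The canonical start was also looked at in the 25 genes whose canonical transcript began at neither start. A canonical start over 3000 bp from the gene start with strong peaks of all 4 libraries would itself have met the rule. The rule thus limits the peaks that these canonical starts can have, and the counts are a description only. In 9 of the 25 genes no reChIP library had a strong peak at the canonical start. In 10 a single library did, which was K4-K119 replicate 1 each time. That library had the most strong peaks of the 4, and whether its yield accounts for these peaks was not tested. The remaining 6 had strong peaks of 2 to 4 libraries there, and in HMGB3 and MPP2 these were the same peaks as in the selected region.

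Other genes with known alternative promoters followed. The list of 55 such genes, drawn up from textbook cases with earlier results of these data known, had 54 members with an internal start, of which 9 (16.7%) were selected, beside 3.12% over all genes, and 11 (20.4%) had strong peaks of all 4 libraries at the gene start, beside 29.0%. NR3C1, the glucocorticoid receptor, held 243, 127, 250 and 118 reads at a start in its CpG-rich cluster of first exons, and no peak of any size at the gene start. RASSF1, a tumour suppressor whose upstream promoter is known to be methylated in lung cancer, held 76, 69, 84 and 43 reads at the internal start 3516 bp downstream, annotated with 270 codons instead of 340. Its gene start had peaks of 2 reads in 3 libraries. LPIN1, a phosphatidate phosphatase of fat synthesis, held 81, 58, 60 and 34 reads in the same order of libraries. K119-K4 replicate 2 was the lowest library in each of these genes, and an IgG-IgG peak, of 2 reads, lay at the internal start of LPIN1.

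Among the 12 genes ranked highest, ACTG1, the gene of cytoplasmic gamma-actin, held 908, 655, 730 and 557 reads. A gene was ranked by the percentile of its reads among all strong peaks of a library, taken in the library where it stood lowest. Peaks differ in width, which was 3400 to 7900 bp at ACTG1, so read counts are not levels per length and no order between genes is drawn from them. AHNAK, a giant scaffold protein, held 733, 424, 866 and 357 reads in the same order. ADGRL2, the adhesion receptor latrophilin 2, held 482, 366, 783 and 501 reads, at a start 494787 bp from the gene start. The other high-ranking genes were RGS20, STK11, GATA2, SSBP3, ZFP64, PGAP6, TBX1, GRAMD1A and HMGB3.

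GATA2 and RGS20 were the high-ranking genes whose canonical transcript began at the gene start. At GATA2 the internal start held 633, 396, 687 and 300 reads, and both starts are annotated with the same 480 codons. Both its promoters were rich in CpG, with 255 within 1500 bp of the internal start and 181 at the gene start, and in the 100 bases upstream the gene start had more, as printed here.
GATA2 internal start, chr3:128489035-128489134 (- strand): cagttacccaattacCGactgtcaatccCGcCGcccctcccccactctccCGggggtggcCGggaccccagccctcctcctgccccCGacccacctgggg
GATA2 gene start, chr3:128493202-128493301 (- strand): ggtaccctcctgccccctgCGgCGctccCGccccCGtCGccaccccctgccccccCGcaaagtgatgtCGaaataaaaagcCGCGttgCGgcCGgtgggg
These sequences hold 6 CpG at the internal start and 11 at the gene start.

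At RGS20, a regulator of G protein signalling, the internal start held 570, 340, 741 and 308 reads and the gene start had no peak. The protein annotated for the internal start has 241 codons.

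STK11, the kinase LKB1 that is often lost in lung cancer, held 452, 289, 692 and 343 reads at its canonical start, which lay 28220 bp from the gene start. No reChIP library had a peak at the gene start. TBX1, a factor of heart and pharyngeal development, held 408, 250, 629 and 214 reads at a start 4075 bp from the gene start. Its starts were both rich in CpG, with 271 at the internal start and 180 at the gene start. At ZFP64, a zinc finger protein, the internal start held 540, 334, 484 and 277 reads, and the canonical start 207, 2, 0 and 0. HMGB3, a chromatin protein of the high mobility group, held 301, 168, 636 and 217 reads in peaks that ended 331 to 631 bp from the selected start and lay over the canonical one. SSBP3, PGAP6 and GRAMD1A had their canonical transcript in the region and between 202 and 685 reads in each library.

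**Figure D1:**
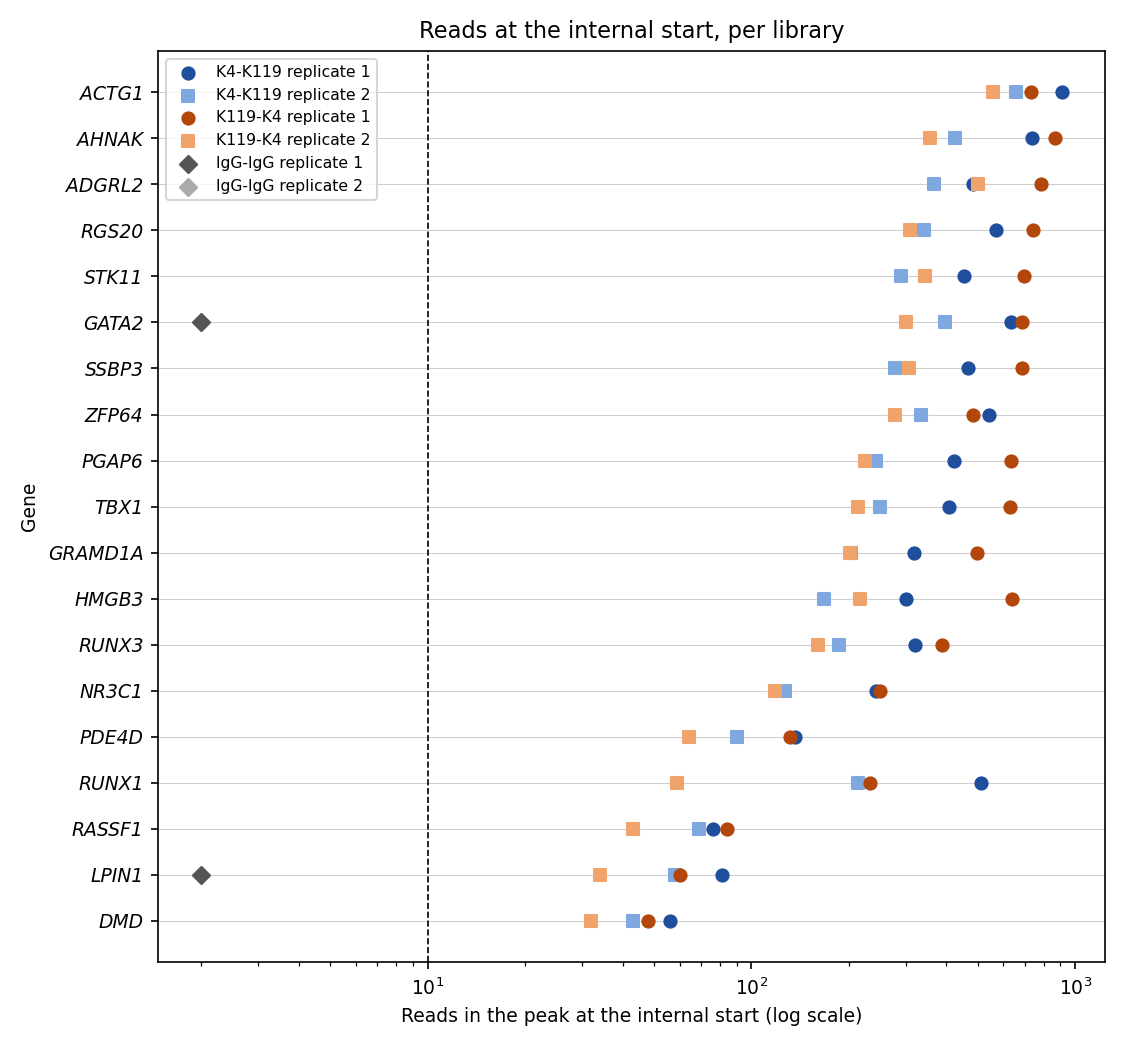
Reads in the peak at the internal start (horizontal, log scale) of the 12 genes ranked highest and of 7 genes known for alternative promoters, 1 row per gene and 1 symbol per library. The dashed line is the limit of 10 reads that the rule applied to the reChIP libraries. Replicate 1 of each order (circles) lies to the right of replicate 2 (squares) in most rows, and the only IgG-IgG peaks, at GATA2 and LPIN1, hold 2 reads each.

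Over all 388 genes the peak held a median of 157, 81, 143 and 59 reads. Peaks at the gene start of the 3613 genes (29.0%) with strong peaks of all 4 libraries there had medians of 146, 76, 143 and 57 reads in the same order. The selected peaks had median widths of 2100, 1800, 1700 and 1300 bp, compared with 2000, 1700, 1500 and 1300 bp at those gene starts. In reads and in width, the medians at internal starts were thus equal to or slightly above those at gene starts. Both sets were chosen by these read counts. They were also not chosen alike. The internal start was the highest ranked of a median of 4 that met the rule, while the gene start is a fixed position. No difference between the sets is drawn from these medians. The authors' log2 fold over input exceeded 1 in all 4 libraries in 239 genes (61.6%). Its median over the selected peaks that had an input read was 5.80 in K4-K119 replicate 1 and 1.42, 2.20 and 1.58 in K4-K119 replicate 2 and the K119-K4 replicates. The scale of input differed between libraries, so these folds are not compared. At ACTG1, 908 reads with 42 input reads gave a fold of 6.04 in K4-K119 replicate 1. In replicate 2, 655 reads with 38 input reads gave 2.13.

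Peaks lay over and downstream of the internal start. At 500 bp into the transcript, 96.1% and 93.6% of the genes had a strong peak in the K4-K119 replicates and 94.1% and 89.7% in the K119-K4 replicates. At 500 bp upstream the shares were 62.6%, 43.8%, 42.5% and 26.3%. The rule treated both sides alike, but the choice among starts of equal rank did not. It took the canonical start, and otherwise the start nearest the gene start, which lies upstream of the others. The gene start is likewise the outermost 5′ end. How far these choices account for the skew was not tested. Strong peaks at the gene start of the other 3613 genes were placed in the same way, with 93.7%, 87.4%, 88.7% and 83.2% at 500 bp into the transcript and 59%, 38.9%, 38.3% and 24.4% at 500 bp upstream. In 211 genes the start itself lay inside the peak of all 4 libraries, and in 29 genes in none of them.

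Peaks below the limit were found at the gene start about as often as in all genes without a strong peak there. A reChIP peak of 2 to 9 reads lay there in 223 genes (57.5%), beside 57.2% of the 3482 genes that had no strong peak at the gene start. The largest of them held 9 reads in K4-K119 replicate 1, 6 in replicate 2, 8 in K119-K4 replicate 1 and 6 in replicate 2. In 165 genes no reChIP library had a peak at the gene start, and in 3 genes all of them had one.

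IgG-IgG peaks were not part of the rule. In 24 genes (6.19%) an IgG-IgG peak lay in the region, against 7.57% at the internal starts of all 12442 genes, and no gene had one in both replicates. Their reads were 2 in all but 3 genes. HDAC2, a histone deacetylase, had the largest with 4 reads, and WSCD1 and SYNM, which encodes the filament protein synemin, had 3, all in replicate 2. At the gene start 27 genes (6.96%) had an IgG-IgG peak, against 7.67% overall. The reChIP peak at the internal start of HDAC2 held 123, 55, 134 and 91 reads.

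The 2 starts differed in CpG content, which the rule did not use either. Within 1500 bp of the internal start the median gene had 167 CpG, with a middle range of 143 to 202.25, and within 1500 bp of the gene start it had 44, with a middle range of 30 to 64.25. The internal start had more CpG in 377 of 388 genes (97.2%). The direction was seen in 318 of the 324 genes whose canonical transcript began at a start that met the rule and in 59 of the 64 others. The median GC content was 58.2% at the internal start and 47.6% at the gene start.

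The contents were the other way round where the strong peaks lay at the gene start. Genes with strong peaks at the gene start had a median of 168 CpG there and 45 at an internal start, and the internal start had more CpG in 3.9% of them. For a gene outside the selection the internal start is that of the canonical transcript where this is internal and otherwise the one nearest the gene start, so the starts were not chosen alike. Over all 12442 genes the medians were 117 at the gene start and 41 at the internal start. The 3094 genes that had no strong peak at the gene start and were not selected had medians of 42 and 45.

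The letters GGGCGG, the core of the GC box bound by Sp1 factors, occurred on either strand within 250 bases upstream of the internal start in 310 genes (79.9%) and upstream of the gene start in 73 (18.8%). Among all 12442 genes 19% had them upstream of the internal start and 52.2% upstream of the gene start. Among the 3613 genes with strong peaks at the gene start, 72.2% had them upstream of it. The letters themselves hold a CpG. The letters TATAAA, searched on the strand of the gene within 40 bases upstream and unable to overlap GGGCGG, occurred at 10 internal starts (2.58%) and 4 gene starts (1.03%), against 1.48% of all gene starts. Such matches describe the sequence and are not shown to be bound.

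In the genes with fewest CpG at the internal start, the peaks lay mostly beside it. CFAP157 and RAB26 had 64, JAK3 65 and MPP2 73. In CFAP157, RAB26 and JAK3 the start lay outside all 4 peaks, which came no nearer than 263 bp, 825 bp and 747 bp. JAK3, a kinase of cytokine receptors, held 65, 30, 33 and 20 reads, and its gene start had peaks of 7, 0, 5 and 2 reads. At MPP2 the start lay inside the peak of 1 library. In 29 genes the start lay outside every peak, and in 9 of them no edge came within 500 bp. A start can be chosen with its region reaching a peak that lies over another start.

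In 57 genes (14.7%) the region also held a start of another protein-coding gene, and in 80 (20.6%) that of a long noncoding RNA gene. There the peak cannot be assigned to either gene. Among the 64 genes with the canonical transcript elsewhere this held for 14 coding neighbours, such as JUNB in the region of HOOK2, LRP1 in that of STAT6 and DEXI in that of CIITA, named here after their values were seen. Leaving these out, 50 genes had strong peaks at an internal start that was neither canonical nor shared with a coding gene, and in 33 of them the canonical transcript began at the gene start.

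Transcription factors of development and lineage had 13 of the 120 on their list that have an internal start (10.8%, beside 3.12% over all genes). They were GATA2, NFIC, RUNX3, NFIA, THRA, NR3C1, ZFHX3, KLF5, RXRA, ETV4, NFIB, RUNX1 and RERE. NFIC and NFIA encode nuclear factor I proteins of lung and brain development, and THRA encodes the thyroid hormone receptor alpha. NFIC held 472, 165, 575 and 171 reads and NFIA 297, 147, 334 and 156 reads in the K4-K119 and then the K119-K4 replicates. The canonical start of NFIC, which also met the rule, had peaks of 243, 86, 157 and 66 reads in the same order of libraries. At NFIA the start lay 217302 bp from the gene start. THRA held 257, 135, 252 and 123 reads. In these 3 genes both replicates 1 lay above both replicates 2.

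Developmental signaling had 7 of 85 members (8.24%, beside 3.12% over all genes): GLI3, NOTCH2, CTNNB1, WWTR1, WNT3, RBPJ and WNT9B. GLI3, a mediator of Hedgehog signalling, held 360, 182, 302 and 167 reads and had no peak of any size at the gene start. WNT3, a ligand of the Wnt pathway, held 205, 74, 195 and 40 reads, at a start that is annotated with 170 codons and lies 60867 bp from the gene start. The canonical start of WNT3 had at most 2 reads. CTNNB1, the beta-catenin that carries Wnt signals, held 141, 87, 196 and 72 reads. RBPJ, the nuclear partner of Notch receptors, held 69, 43, 57 and 42 reads, so both the NOTCH2 receptor and its partner were among the genes.

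Chromatin regulators had 10 of 125 members (8%, beside 3.12% over all genes), among them CHD4, HDAC7, ZMYND11, AEBP2, PHF19, HDAC2, KDM4C, L3MBTL3 and SMARCA2. AEBP2 and PHF19 are accessory subunits of the Polycomb complex PRC2, which methylates H3K27. AEBP2 held 155, 70, 272 and 128 reads, and PHF19 held 171, 79, 134 and 52. CHD4, a remodeller of the NuRD complex, held 241, 147, 419 and 149 reads, and its region also held a start of another coding gene. At all 3 the canonical transcript began in the region. HDAC7, a deacetylase that shuttles between nucleus and cytoplasm, held 264, 131, 301 and 113 reads.

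The other lists reported had shares between 2.33% and 5.66%, beside 3.12% over all genes. The cell cycle list had 1 of 43, CDKN1B, the inhibitor p27 of cyclin-dependent kinases, with 149, 95, 147 and 121 reads at the start whose sequence is printed above. Cytoskeleton, septins and adhesion scaffolds had 3 of 53, TPM4, SEPTIN8 and SEPTIN3, of which SEPTIN3 had its canonical transcript at the gene start. TPM4, a tropomyosin of the actin filament, held 238, 91, 288 and 130 reads, and SEPTIN3, a neuronal septin, 134, 45, 88 and 37. Rab and Arf GTPase regulators had 2 of 61 (3.28%), ACAP1 and AGAP2. AGAP2, which acts on Arf GTPases, held 575, 204, 556 and 84 reads. At ACAP1 no protein-coding transcript began in the region, and that of AGAP2 also held a start of TSPAN31. Strong peaks of all 4 libraries at the gene start were found in 20.4% of the genes known for alternative promoters, beside 29.0% over all genes. The other lists reported lay above 29.0%, with 62.4% of developmental signaling, 51.2% of cell cycle and 50.9% of cytoskeleton, septins and adhesion scaffolds. Chromatin regulators had 48%, Rab and Arf GTPase regulators 41% and transcription factors of development and lineage 38.3%. No set test was run on any of the lists.

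The reads at these starts were then compared between the 2 orders of antibodies. The mean of the K119-K4 replicates against that of the K4-K119 replicates had a median log2 ratio of -0.18, and the 4 pairings of single libraries, within and across replicate numbers, gave medians from -1.32 to 0.90. Within replicate numbers the medians were -0.05 for replicate 1 and -0.39 for replicate 2, and K119-K4 had fewer reads in 205 and 298 of the 388 genes. Scaling by the reads in strong peaks of each library changed these medians to 0.43 and 0.17. The median over both replicates likewise turned to 0.26 when scaled, so no order is called the higher. No test was run, because the genes were chosen by these read counts. The peaks at gene starts of the other 3613 genes had a median of -0.14.

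Replicate 1 of each order had the more reads at most of these starts. Both replicates 1 exceeded both replicates 2 in 346 genes (89.2%), as in 90.7% of the gene starts with strong peaks. Both K4-K119 libraries exceeded both K119-K4 libraries in 31 genes (7.99%), beside 6.23% at those gene starts, and the opposite held in 5 genes (1.29%), beside 1.13%. The most one-sided genes, picked after their values were seen, were SKOR1, a corepressor of neurons, with 521, 172, 96 and 27 reads, and PTP4A1, a phosphatase of the PRL family, with 255 and 160 reads against 517 and 272. The region of PTP4A1 also held a start of another coding gene. The peaks of SKOR1 were 4900 and 5300 bp wide in K4-K119 and 1700 and 1500 bp in K119-K4, and the read counts move with that width. RUNX1 was of the same kind, with a log2 ratio of -1.31 and widths of 6500, 5900, 3300 and 2000 bp. In K119-K4 replicate 1 another strong peak lay just downstream of the one counted at RUNX1, as the plot of peaks shows.

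Near the limit of the rule, PDE2A was selected with 106, 39, 27 and 10 reads, RHOBTB2 with 87, 11, 45 and 15, and SLC47A1 with 115, 55, 46 and 11. Just outside it, GAD1 had 246, 43, 38 and 9 reads, ACTN2 82, 32, 38 and 9, and MEAK7 94, 26, 21 and 9. A smallest count of 10 to 19 reads was found in 44 of the 388 genes and one of 100 or more in 87 (22.4%). K119-K4 replicate 2 was the lowest library in 296 genes, so it most often set whether a gene met the limit. With only peaks whose log2 fold exceeded 1, PDE4D, RUNX1, RASSF1, WNT3 and DMD no longer met the rule, and with the limit at 5 reads RUNX3 and CDKN1B did not, because of the peaks at their gene starts.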

How the data were processed

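According to the submitters' notes, the authors used Trim Galore 0.6.6 for trimming, BWA 0.7.13 for alignment to hg38, and SAMtools 1.9 with Picard 2.6.0 afterwards. EPIC2 was run by the authors on each replicate with genomic input as the control, in bins of 100 bp. The deposited count columns give unscaled whole reads of the library and of input in each peak. A deposited p-value and FDR state how far a peak exceeds input in that library alone. The deposited log2 fold is reads over scaled input, from which the deposited score is made by multiplying by 100 up to a limit of 1000. Reads outside peaks are not listed and depth is not stated. The scale of input, which differs between libraries, was not used to derive it.

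All 6 libraries were used, grouped by the submitters' labels. Starts, transcript types and tags were taken from GENCODE v44, and base composition from hg38. Where several starts of a gene met the rule, the one ranked highest was used. Ties went to the canonical start and then to the start nearest the gene start. In a region, the peak with the most reads was taken. No test was run, since the rule used these read counts and since peaks called separately in each library are no count table. All peaks listed were used, without the authors' limit on the log2 fold, and the ENCODE blacklist was not used here. The genes and the gene lists, 8 in number, were chosen with earlier results of these data known. Some of these genes and 1 of the lists are not reported here.

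The genes named are the 12 ranked highest, up to 6 per list, the 4 with the longest distance, the 4 with the widest peaks, the 4 with fewest CpG, 3 on either side of the limit of 10 reads and up to 3 with the largest IgG-IgG peaks. Lists are given with all genes that met the rule, and other genes are marked as named after their values were seen. Alternatives changed the limit of reads, the fold, input reads, distance, flanks, overlap, transcript types, the gene start and the libraries. The scripts were tested on simulated peaks. Python 3.11.15, numpy 2.4.6, pandas 2.3.3, scipy 1.17.1 and matplotlib 3.10.9 were used.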

Additional observations from a re-analysis of the deposited data

How the results depend on the processing

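Of 17 alternatives, 14 left between 267 and 522 genes, within 1.5 times of 388. Only peaks with a log2 fold above 1 left 243 genes, and PDE4D, RUNX1, RASSF1, WNT3 and DMD were among the 17 of 52 named genes lost. No reChIP peak of any read count at the gene start left 165 genes. With the gene start set at the canonical start 153 genes met the rule, 47 of them among the 388, and the share with the canonical transcript at a start that met the rule was 0 by construction, where it was 83.5% in the report and between 81.2% and 86.7% under the others. Leaving out 1 library gave 398 to 522 genes, and since this relaxes the rule all 388 were kept by construction. Median CpG at the internal start was 175 with a log2 fold above 1, 94 within 500 bp (15 at the gene start), and between 160.5 and 166 without 1 library. The internal start had more CpG in 94.0% to 98.8% of genes under every alternative. The share with an IgG-IgG peak, 6.19%, was 2.37% within 500 bp, 0% without the genes that had one, 2.58% to 6.51% without 1 library, and 3.61% without IgG-IgG replicate 2. The median ratio of the orders stayed at -0.18 with summed reads and turned to 0.26 with scaled reads. With a replicate block, chosen after seeing the data, that is the mean of the ratios within replicate numbers, it was -0.24. The 44 genes in lists became 47 at 20 or more reads, and the share with a noncoding first transcript 29.5% with coding starts only. Depth that is not stated, unequal peak widths and reads on near-identical copies limit all read counts.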
